A study of Mus musculus with 48 samples.

Results

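Ide, Btaf1, Fgfbp3, Cpeb3, March5, Tnks2 and Kif11 lie side by side on mouse chromosome 19, and their RNA was followed here mouse by mouse. They are 7 of 23420 genes in the deposited gene table, and their 195 exon bins are among 368092 in the exon table. Bins are pieces of exons, cut wherever annotated transcripts differ. The members were chosen by their measured levels: Ide, Btaf1 and Fgfbp3 because they differed between mice in a step, and the other 4 because they neighbour them. The step is therefore given below as a description, with no test. The members were also chosen knowing that the step did not follow genotype, so their genotype differences are given as estimates, from which nothing further is read. The sex comparisons carry tests.

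The striatum of 16 mice of about 50 days was sequenced, 8 mice of a line called 112kb congenic and 8 wild-type C57BL/6J mice. Each genotype held 4 males and 4 females, and striatal punches of 3 mm from both sides were pooled per mouse. As background knowledge of this line, its DBA/2J segment lies on chromosome 11, so the genes described here are outside it. The 3 lanes of each mouse were summed, which gave 73.1 to 82.0 M counts per mouse (M, mega). Levels are CPM, the usual depth-scaled counts, taken relative to the total of the gene table, for bins as well as genes.

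Ide encodes the insulin-degrading enzyme, a zinc protease that cleaves insulin and amyloid-beta. Fgfbp3 encodes a secreted protein that binds fibroblast growth factors, and Btaf1 an ATPase that takes the TATA-binding protein off DNA. Cpeb3 binds mRNAs and regulates their translation at synapses, March5 is a ubiquitin ligase of the outer mitochondrial membrane, Tnks2 is a tankyrase that adds poly-ADP-ribose to proteins such as axin, and Kif11 is the mitotic kinesin Eg5. A copy number variant that covers Ide and Fgfbp3 has been described within C57BL/6J stocks. DNA copy number was not measured in these mice, and its part in the levels was not tested.

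The 9 markers of striatal projection neurons summed to 8548 to 10667 CPM, against 25.7 to 234 CPM for the 4 markers of cortical excitatory neurons, so the libraries carried the markers of the labelled tissue. The wild-type mouse Sample_4806 is labelled female, and its markers matched neither sex in full. Its Xist was low, as in the males, and its Y-linked counts were low, as in the other females. It had 2.73 CPM of Xist and 7 counts over 4 Y-linked genes. The other 7 females had 958 to 1535 CPM of Xist and 13 to 213 Y-linked counts, and the 8 males had 1.32 to 17.3 CPM and 13555 to 15622 counts. The sex log2 fold changes of the members are therefore given with and without it, and the other sex results only with it.

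On the NCBIM37 assembly the genes run in the order Tnks2 (chr19:36908722-36967967, + strand), Fgfbp3 (chr19:36992040-36994105, - strand), Btaf1 (chr19:37000569-37088547, + strand), Cpeb3 (chr19:37095781-37283091, - strand), March5 (chr19:37282033-37296629, + strand), Ide (chr19:37343233-37412342, - strand) and Kif11 (chr19:37450893-37496349, + strand). Fgfbp3 and Btaf1 are transcribed away from each other, 6463 bases apart. Cpeb3 and March5 overlap by 1059 bases on opposite strands. No source used here states whether counting took account of strand, so reads in that overlap may belong to either gene.

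Per kilobase of exon, March5 had the highest level, 31.2 ± 1.32 CPM per kilobase (SD, n = 16 mice), followed by Tnks2 with 18.9 ± 0.949. Btaf1 with 9.65 ± 1.45, Ide with 8.25 ± 1.96 and Cpeb3 with 7.37 ± 0.405 CPM per kilobase came next, and these neighbours in the order did not differ beyond their spread. Fgfbp3 had 3.45 ± 0.735 and Kif11 0.769 ± 0.258 CPM per kilobase. The length counts every annotated exon base, including long bins with few counts. Tnks2 bin 32, for example, has 1022 bases at 0.0816 CPM, and bin 36 has 1284 bases at 0.859 CPM. The values per kilobase and the distances between genes therefore depend on the annotation. The coefficient of variation was 4.22% for March5, 5.01% for Tnks2 and 5.5% for Cpeb3, against 15% for Btaf1, 21.3% for Fgfbp3, 23.8% for Ide and 33.5% for Kif11.

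Ide had 2 levels over the mice. Ordered by Ide, the mice left their largest gap between 42.3 and 53.9 CPM, a 1.28-fold step with no mouse inside it. The 7 mice above the gap were Sample_4673, Sample_4677, Sample_4733 and Sample_4739 of the congenic line and Sample_4672, Sample_4738 and Sample_4806 of the wild type. They had 53.9 to 63.9 CPM of Ide with a median of 60.8, and the 9 other mice had 36.4 to 42.3 CPM with a median of 38.3. The ratio of the medians was 1.59. Each side spanned less than the gap between the sides, the upper side only slightly less in CPM.

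The same 7 mice stood above the gap when each lane, itself a part of the summed counts, was taken alone. The gap was 0.39 on the log2 scale in lane 3, 0.33 in lane 4 and 0.34 in lane 5. Among 3736 genes whose largest gap left at least 4 mice on each side, 272 had a gap as large as the 0.35 of Ide. Of the 2754 of those genes that averaged at least 5 CPM, as Ide did, 33 had a gap as large, Ide included.

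Both genotypes and both sexes held mice on each side. Of the congenic mice 4 of 8 were above the gap, and of the wild-type mice 3 of 8. The 7 mice above it were 3 males and 4 females by label, and the 9 others 5 males and 4 females. Ide had 36.4 to 63.2 CPM with a median of 48.1 in congenic mice, and 36.8 to 63.9 CPM with a median of 39.0 in wild-type mice, so the groups overlapped over almost their whole ranges.

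**Figure D1:**
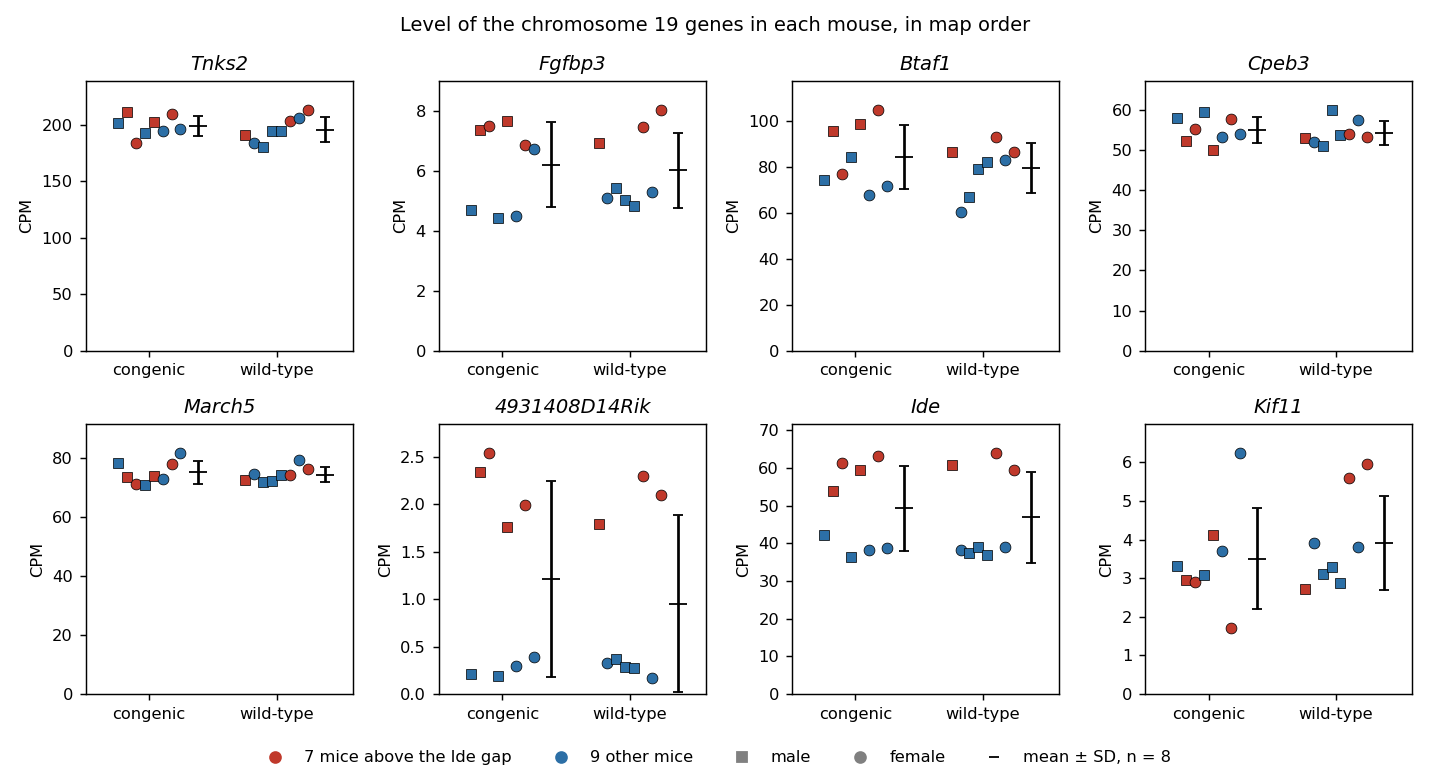
Level of each gene (CPM, linear axis from 0) in each of the 16 mice, in map order, with congenic mice left of wild-type mice in every panel. Red points are the 7 mice above the largest gap of Ide and blue points the 9 others, squares are males and circles females, and bars show the mean ± SD of 8 mice. Red and blue points separate in the panels of Ide, Fgfbp3 and 4931408D14Rik and mix in those of Tnks2, Cpeb3, March5 and Kif11.

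Fgfbp3 separated the same 2 sets of mice, with less room between them. The 7 mice above the Ide gap had 6.85 to 8.03 CPM of Fgfbp3 with a median of 7.46, and the 9 others had 4.42 to 6.72 CPM with a median of 5.04, a ratio of 1.48. The congenic mouse Sample_4804, at 6.72 CPM, came close to the upper set, and the largest gap of Fgfbp3 itself lay below that mouse, between 5.43 and 6.72 CPM. Nearly all counts of Fgfbp3 came from the first of its 2 bins, which had 6.84 to 7.93 CPM in the 7 mice and 4.39 to 6.69 CPM in the 9. The sets did not overlap in lanes 3 and 4 alone, but did in lane 5, where the 7 mice began at 6.45 CPM and the others reached 7.76 CPM.

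Btaf1 as a whole did not separate the sets. Its gene level was 77.1 to 105 CPM with a median of 93.2 in the 7 mice and 60.3 to 84.5 CPM with a median of 74.4 in the 9 others, a ratio of 1.25. Its bins divided in a different way. In each of bins 1 to 13, at the 5′ end, the 7 mice were all higher than the 9 others, with ratios of medians from 1.84 to 2.33. In bins 14 to 38 no bin separated them, and the ratios ran from 0.899 to 1.3.

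Summed over bins 1 to 13, Btaf1 had 42.2 to 58.7 CPM with a median of 50.7 in the 7 mice, and 17.3 to 28.0 CPM with a median of 24.3 in the 9 others. The ratio of the medians was 2.08. Summed over bins 14 to 38, the 7 mice had 74.4 to 101 CPM and the 9 others 70.9 to 97.1 CPM, a ratio of medians of 1.06. A read that spans several bins can be counted in each, so these sums exceed the gene level.

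The share of Btaf1 bin counts that fell in bins 1 to 13 also separated the sets. It was 34.8% to 36.8% in the 7 mice and 19.6% to 23.4% in the 9 others. By genotype the share was 28.7% ± 7.74 in congenic mice and 27.0% ± 7.39 in wild-type mice (SD, n = 8 each). Within each set, bins 1 to 13 and bins 14 to 38 varied together from mouse to mouse, with Pearson's r of 0.96 among the 7 mice and 0.96 among the 9. Both sums come from the same libraries and the same gene. The division at bin 13 was chosen after the values were seen.

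**Figure D2:**
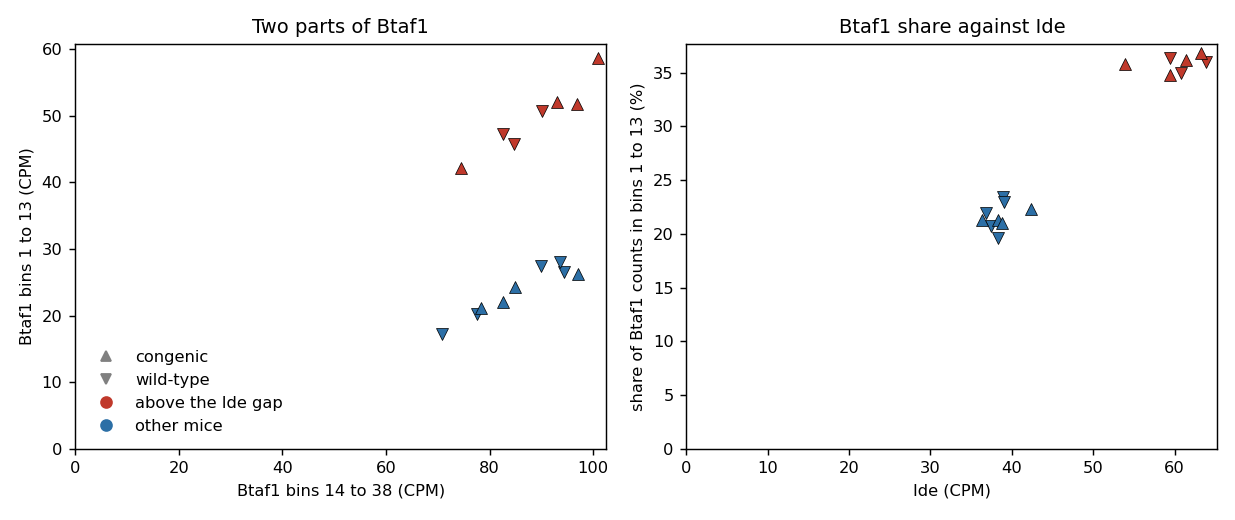
Left, summed level of Btaf1 bins 1 to 13 against that of bins 14 to 38 (CPM, linear axes from 0), and right, the share of Btaf1 bin counts in bins 1 to 13 (percent) against the Ide level (CPM). Each point is a mouse, upward triangles are congenic and downward triangles wild-type, red marks the 7 mice above the Ide gap and blue the 9 others. The mice lie along 2 lines on the left, and on the right they form 2 groups, at 34.8% to 36.8% and at 19.6% to 23.4%.

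The change from separated to mixed bins lay between bin 13, which ends at base 37044528, and bin 14, which starts at base 37047388. Bin 13 had 1.85 to 3.68 CPM in the 7 mice and 1.05 to 1.54 CPM in the 9 others. Bin 14 had 1.03 to 1.82 CPM in the 7 mice and 1.05 to 1.48 CPM in the 9 others. An intron of 2859 bases lies between them. Both are coding exons, and they are shown because the step ends between them, with the exon in capitals and 20 intron bases on each side in lower case, on the + strand of NCBIM37.

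Btaf1 bin 13 (chr19:37044384-37044548): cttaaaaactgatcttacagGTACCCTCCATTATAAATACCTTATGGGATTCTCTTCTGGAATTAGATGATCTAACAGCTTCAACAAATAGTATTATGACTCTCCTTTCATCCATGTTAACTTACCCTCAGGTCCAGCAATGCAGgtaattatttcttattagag

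Btaf1 bin 14 (chr19:37047368-37047528): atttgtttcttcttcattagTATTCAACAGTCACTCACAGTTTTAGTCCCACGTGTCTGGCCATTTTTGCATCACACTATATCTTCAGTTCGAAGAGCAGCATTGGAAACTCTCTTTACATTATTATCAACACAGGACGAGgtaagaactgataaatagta

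Along Ide the step was present from end to end, which is a description only, since the Ide level itself defined the sets. Of its 35 bins 28 passed the filter on low counts, and in 23 of those the 7 mice were all higher than the 9 others. The ratios of medians in the 28 bins ran from 1.41 to 1.75 with a median of 1.54. The other 5 bins overlapped. They are the low bins 13 and 15, at 0.115 and 0.152 CPM on average, and the coding bins 29, 30 and 31, where the ratios of 1.52, 1.55 and 1.55 lay within the range of the rest. The largest bin, at the 3′ end, had 16.2 to 20.1 CPM in the 7 mice and 10.1 to 12 CPM in the 9 others.

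The 2 members between Btaf1 and Ide showed no step. Cpeb3 had 50.0 to 57.8 CPM with a median of 53.3 in the 7 mice, and 50.9 to 60.0 CPM with a median of 53.9 in the 9 others. March5 had 71.3 to 78.0 CPM with a median of 73.7 in the 7 mice, and 70.9 to 81.6 CPM with a median of 74.3 in the 9 others. No bin separated the sets among the 35 of Cpeb3 and the 13 of March5 that passed the filter. The mice with high Ide were thus spread through the range of both genes.

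The outer neighbours did not separate the sets either. Tnks2, left of Fgfbp3, had 184 to 213 CPM in the 7 mice and 180 to 206 CPM in the 9 others, a ratio of medians of 1.04. Kif11, right of Ide, had 1.72 to 5.95 CPM in the 7 mice and 2.88 to 6.24 CPM in the 9 others, a ratio of 0.889. None of the 40 bins of Tnks2 and 22 of Kif11 that passed the filter separated them.

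**Figure D3:**
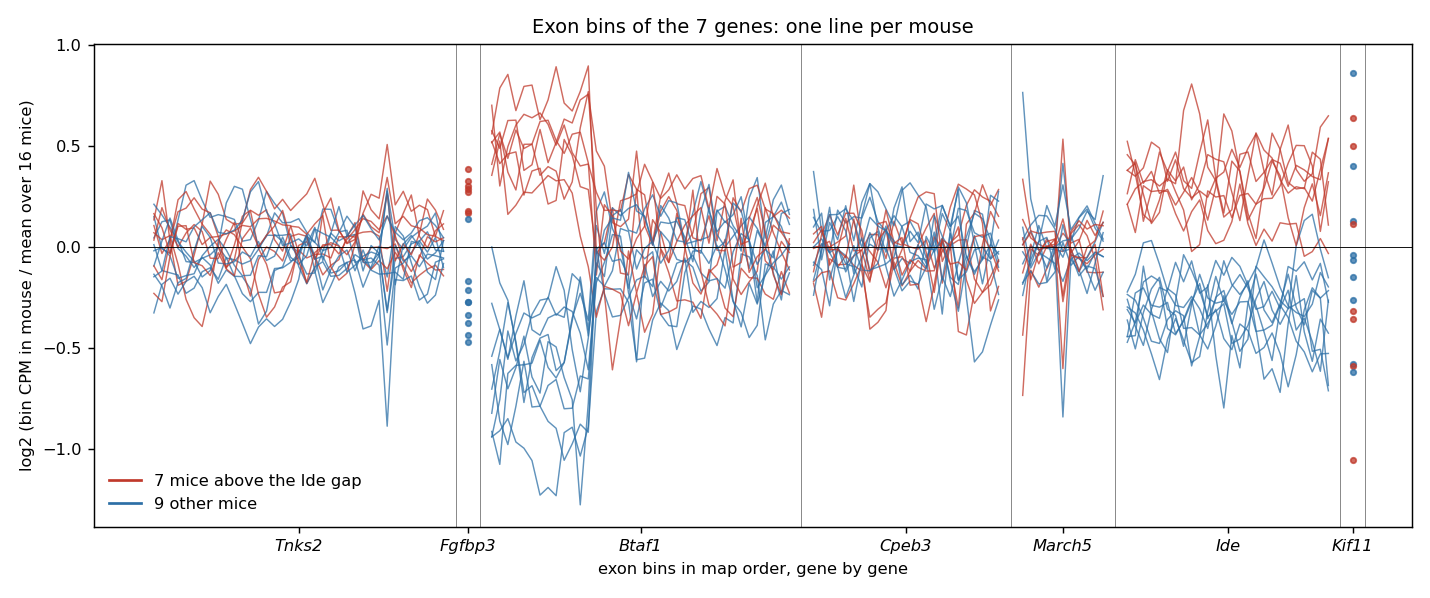
Level of each exon bin in each mouse relative to the mean of 16 mice (log2 scale), with bins in map order gene by gene and bins under 0.5 CPM on average left out. Each line is a mouse, red for the 7 above the Ide gap and blue for the 9 others, and genes with a single bin over that level show points. Red lines lie above blue lines in the first 13 bins of Btaf1 and in Ide, apart from overlaps in Ide bins 29, 30 and 31. The colours mix in the rest of Btaf1 and in Tnks2, Cpeb3 and March5.

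Over the whole gene table, 3 of 16716 genes that passed the filter (0.0179%) had the same 7 mice all higher than the 9 others, and 0 (0%) had them all lower. The 3 were Ide, which defined the sets, Fgfbp3, and the long non-coding RNA 4931408D14Rik. Of the exon bins, 44 of 235478 (0.0187%) did so, 36 of them in Btaf1 and Ide and 8 in 7 other genes or gene groups. The filter on bins kept genes with at least 2 usable bins, so Fgfbp3 is not among them. Because the members were chosen for this step, nothing is read from their share.

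4931408D14Rik had the widest step of the 3. It had 1.76 to 2.54 CPM with a median of 2.1 in the 7 mice, and 0.171 to 0.387 CPM with a median of 0.281 in the 9 others, a ratio of 7.45. The sets did not overlap in any single lane. RefSeq places it on the - strand, the strand of Ide. Its RefSeq start region matched NCBIM37 chromosome 19 once and exactly, which puts its start at base 37338585, between March5 and Ide and 4648 bases beyond the 3′ end of Ide. It has no entry in the GENCODE annotation from which the bins were rebuilt.

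Start regions from RefSeq (GRCm38.p6) are shown for the 3 genes next to or inside the stepped stretch whose listed start lies within 20 bases of the GENCODE start or, for 4931408D14Rik, has no such entry. Each runs from 250 bases before to 50 bases after the start, on the strand of the gene, and positions are those of its single exact match on NCBIM37 chromosome 19. Capitals mark matches to motifs searched by letters alone, on both strands and at any position. The motifs were TATAAA (from the TATA box), CCAAT (from the CCAAT box) and GGGCGG (from the GC box), and no matches overlap.

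Fgfbp3 (chr19:36994040-36994339, - strand): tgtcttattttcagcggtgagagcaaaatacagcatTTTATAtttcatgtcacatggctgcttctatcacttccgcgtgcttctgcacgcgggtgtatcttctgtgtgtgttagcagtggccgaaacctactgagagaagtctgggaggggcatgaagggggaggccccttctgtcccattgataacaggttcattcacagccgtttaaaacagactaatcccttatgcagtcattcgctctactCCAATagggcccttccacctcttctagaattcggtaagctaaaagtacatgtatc

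Btaf1 (chr19:37000319-37000618, + strand): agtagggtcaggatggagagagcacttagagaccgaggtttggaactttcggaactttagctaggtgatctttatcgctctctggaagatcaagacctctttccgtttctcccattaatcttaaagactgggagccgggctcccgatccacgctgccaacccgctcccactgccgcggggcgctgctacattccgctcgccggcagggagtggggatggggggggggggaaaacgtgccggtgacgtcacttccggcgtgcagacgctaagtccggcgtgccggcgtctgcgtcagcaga

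4931408D14Rik (chr19:37338536-37338835, - strand): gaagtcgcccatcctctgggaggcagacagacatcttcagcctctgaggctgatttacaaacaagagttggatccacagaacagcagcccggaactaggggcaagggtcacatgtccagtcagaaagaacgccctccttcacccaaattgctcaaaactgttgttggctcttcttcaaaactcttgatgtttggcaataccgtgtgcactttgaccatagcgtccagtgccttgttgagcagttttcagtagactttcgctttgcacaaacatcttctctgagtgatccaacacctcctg

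Fgfbp3 held 1 TATAAA and 1 CCAAT, and Btaf1 and 4931408D14Rik held no match to the 3 motifs. The TATAAA match of Fgfbp3 is on the opposite strand, shown as TTTATA, near the upstream end of the region. Its CCAAT match ends just before the start. Letters alone do not show a working TATA or CCAAT box, and the use of these matches was not tested. Of 32544 RefSeq start regions of the same length, 13.6% held TATAAA, 37.4% CCAAT and 35.9% GGGCGG. Btaf1 had 25 CG dinucleotides, Fgfbp3 9 and 4931408D14Rik 6, where the median region had 7. The listed RefSeq start of Ide lies 3308 bases inside the GENCODE gene, so its region is not shown.

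Likeness to Ide was measured as Pearson's r of log2 CPM over the 16 mice, as a description, since all values of a mouse share its library. 4931408D14Rik had the largest r of the 16579 genes outside the members, 0.95, and the next were Slc22a21 and 1810033B17Rik at 0.72, Cep68 at 0.71, and Ada at 0.70. Gen1, 3110021N24Rik, Pms1 and Snord4a followed at 0.69 and Lum at 0.68. Slc22a21, an organic cation and carnitine transporter, had 1.13 to 1.48 CPM in the 7 mice and 0.797 to 1.31 CPM in the 9 others, which overlap. The median r over those genes was 0.01 and the 99th percentile 0.50.

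Among the members, r with Ide was 0.87 for Fgfbp3, 0.69 for Btaf1, 0.42 for Tnks2, -0.06 for March5, -0.07 for Kif11 and -0.21 for Cpeb3. The likeness rested on the step. Within the 7 mice Fgfbp3 had an r of -0.23 with Ide, and within the 9 mice 0.08. For 4931408D14Rik the values were -0.09 and -0.19.

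Further genes on either side of the stretch were read from a list of 22 neighbours, of which 19 passed the filter. None of the 22 separated the sets. Nearest on the left, Ppp1r3c, a glycogen-targeting subunit of protein phosphatase, had 42.3 to 62.8 CPM in the 7 mice and 40.5 to 51.8 CPM in the 9 others. Nearest on the right, the homeobox gene Hhex had 1.73 to 2.28 CPM in the 7 mice and 1.39 to 2.4 CPM in the 9 others. Myof, a membrane repair protein farther right, was low where Ide was high, with an r of -0.74: 3.08 to 4.05 CPM in the 7 mice and 3.89 to 4.6 CPM in the 9 others.

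The cell type markers overlapped between the sets in all 8 lists. Striatal projection neuron markers summed to 9011 to 10207 CPM in the 7 mice and 8548 to 10667 CPM in the 9 others. Oligodendrocyte markers summed to 6092 to 9824 CPM in the 7 mice and 6591 to 9228 CPM in the 9 others, and astrocyte markers to 204 to 270 CPM in the 7 mice and 208 to 254 CPM in the 9 others. No marker of the 8 lists was at 0 in all mice. In bulk tissue, fewer cells of a type and less RNA per cell cannot be told apart.

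Kif11 varied in its own way. It was highest in Sample_4804 (6.24 CPM), Sample_4806 (5.95 CPM) and Sample_4738 (5.59 CPM), with 1.72 to 4.12 CPM in the 13 others. The same 3 mice had the highest sums over a list of 10 mitosis genes, which ranged from 15.7 to 43.9 CPM over all mice. Top2a, a topoisomerase of dividing cells, had 12.1, 10.1 and 12.5 CPM in those mice and 2.09 to 7.47 CPM in the others, and Mki67, a proliferation marker, had 12.7, 11.6 and 14.6 CPM against 5.16 to 9.51 CPM. Not every gene of the list separated them: Aurka had 2.07, 2.5 and 2.43 CPM in those mice and up to 2.24 CPM in the others, Kif23 3.13, 3.2 and 3.25 CPM against up to 3.36 CPM, and Cdk1 1.82, 1.3 and 1.64 CPM against up to 1.35 CPM. The 3 mice were picked by their Kif11 level, and all are labelled female. Of them 1 is congenic and 2 are wild-type, and 2 are above the Ide gap. Ependymal markers summed highest in Sample_4804 and Sample_4806, at 33.6 and 28.7 CPM, where the median mouse had 20.9 CPM. The same 2 mice had the lowest striatal projection neuron sums, 8548 and 9011 CPM, and cortical neuron sums of 234 and 206 CPM, among the 3 highest. Sample_4738 had 21.4 CPM of ependymal, 9931 CPM of projection neuron and 138 CPM of cortical neuron markers, nearer to the medians of 20.9, 9917 and 123 CPM. The part of these cell types in the Kif11 levels was not tested.

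The congenic and wild-type mice were compared for each member. The values are estimates only, since the members were chosen knowing that the step did not follow genotype. Over the whole gene table edgeR called 0 of 16716 genes by genotype (0%) at an adjusted p under 0.05. Of these genes, 256 had an unadjusted p under 0.05. DESeq2 and limma called 0 as well. Ide averaged 49.2 ± 11.4 CPM in congenic mice and 46.8 ± 12.1 CPM in wild-type mice (n = 8 mice per genotype, SD). Its log2 fold change, congenic over wild-type, was 0.08 with a 95% interval of -0.29 to 0.45. With 1 mouse left out it ran from 0.02, without the congenic mouse Sample_4733, to 0.17, without the wild-type mouse Sample_4672.

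Btaf1 averaged 84.4 ± 13.9 CPM in congenic mice and 79.8 ± 11 CPM in wild-type mice, a log2 fold change of 0.08 (95% interval -0.14 to 0.30), which ran from 0.01 without the congenic mouse Sample_4739 to 0.13 without the wild-type mouse Sample_4738. Fgfbp3 averaged 6.21 ± 1.43 CPM in congenic mice and 6.01 ± 1.26 CPM in wild-type mice, a log2 fold change of 0.05 (-0.24 to 0.35). Of the members without a step, Cpeb3, March5 and Tnks2 had tighter intervals, and Kif11 did not. The log2 fold change was 0.02 for Cpeb3 (-0.07 to 0.11), 0.02 for March5 (-0.05 to 0.08) and 0.03 for Tnks2 (-0.05 to 0.11). Kif11 had -0.13 (-0.54 to 0.28), and 4931408D14Rik 0.39 (-1.17 to 1.96).

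Use of single bins relative to the rest of their gene was compared between the genotypes as well. These counts are also given as a description only, since the members were chosen knowing that the step did not follow genotype. Of 176 member bins tested by edgeR, 0 were called, against 1 of 235478 bins in all (0.000425%). An unadjusted p under 0.05 was found for 2 member bins, beside 2426 of the 235478 bins in all. The 2 member bins were Cpeb3 bin 33 and March5 bin 7, named after their values were seen. None of the bins of Btaf1 and Ide was among them. Nothing is read from that, because the mice above the Ide gap were 4 congenic and 3 wild-type by selection of such a step.

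Between the sexes edgeR called 23 of 16716 genes (0.138%), and no member was among them. That count rested on single mice and on the tool: leaving out 1 mouse gave 12 to 76 genes, and DESeq2 gave 259, with no member called in any of these fits. Ide averaged 45.7 ± 10.5 CPM in males and 50.3 ± 12.6 CPM in females (n = 8 mice per sex, SD). The log2 fold change, male over female, was -0.11 (95% interval -0.48 to 0.26, edgeR adjusted p = 0.773). It was -0.08 without Sample_4806. Kif11 averaged 3.18 ± 0.431 CPM in males and 4.23 ± 1.58 CPM in females, a log2 fold change of -0.37 (-0.78 to 0.04, edgeR adjusted p = 0.384), and -0.30 without Sample_4806. The mice with the highest Kif11, Sample_4804, Sample_4806 and Sample_4738, are all labelled female. The other members had log2 fold changes, with and then without Sample_4806, of 0.07 and 0.09 for Btaf1, -0.12 and -0.07 for Fgfbp3, 0.03 and 0.02 for Cpeb3, -0.02 and -0.03 for March5, and 0.005 and 0.02 for Tnks2. Two-sided exact permutation tests of log2 CPM over all divisions of the mice into 8 and 8 gave p-values from 0.685 to 0.972, adjusted over 8 genes, the members and 4931408D14Rik.

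Whether the genotype difference itself differed between the sexes was fitted as a product term. As with the genotype differences, the values of the members are estimates only. edgeR called 0 of 16716 genes (0%) there, with 698 at an unadjusted p under 0.05. For Ide the term was 0.10 on the log2 scale (95% interval -0.67 to 0.87), and for Kif11, the largest of the members, 0.54 (-0.25 to 1.33).

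**Figure D4:**
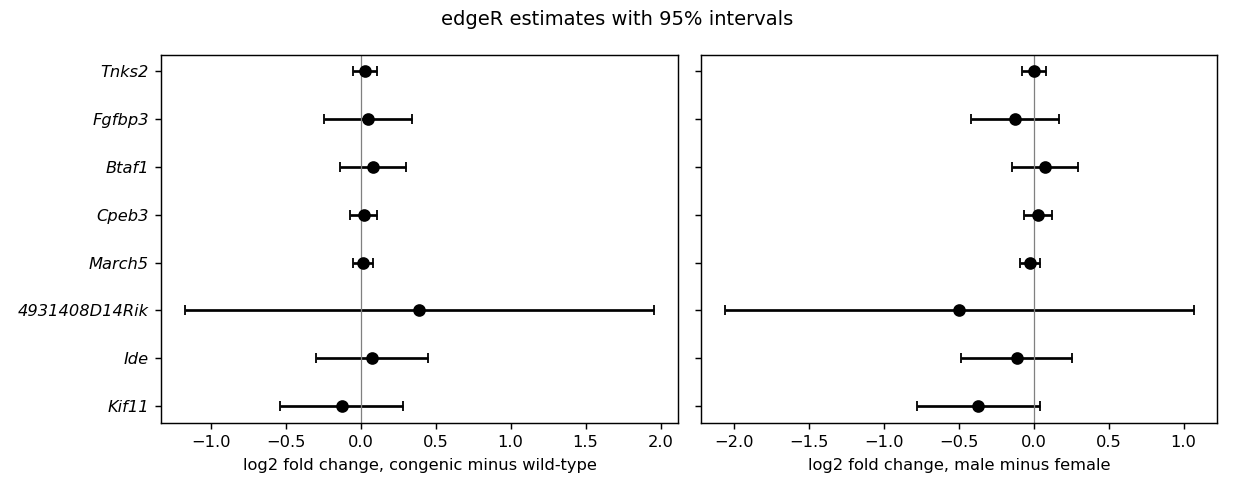
edgeR log2 fold change of each gene with its 95% interval, congenic over wild-type on the left and male over female on the right, over 16 mice. Every interval contains 0, and those of Ide, Fgfbp3, Btaf1 and Kif11 are wider than those of Tnks2, Cpeb3 and March5.

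Genes that work with the members were read from gene lists, and edgeR called none of them by genotype or sex, beside 0% and 0.138% of all genes. Of 20 insulin and amyloid genes 0 were called, and the genotype log2 fold change was -0.004 for the insulin receptor Insr, -0.06 for Igf1r and -0.11 for Igf2r. Of 14 fibroblast growth factor genes 0 were called, with -0.04 for the receptor Fgfr1, 0.03 for Fgfr2 and 0.02 for Fgfr3. Of 13 genes of the TATA-binding protein and its partners 0 were called, with 0.06 for Tbp, 0.01 for Tbpl1 and 0.03 for Dr1. The list medians were -0.01, 0.03 and 0.03, beside a median of 0.001 over all genes tested.

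Of 9 translation regulators listed with Cpeb3, 0 were called, with log2 fold changes of 0.05 for Cpeb1, 0.02 for Cpeb2 and 0.02 for Cpeb4. Of 9 tested genes of mitochondrial shape and turnover 0 were called, with 0.03 for the fusion protein Mfn1, -0.04 for Mfn2 and 0.01 for the fission protein Dnm1l. Of 9 tankyrase and axin genes 0 were called, with -0.003 for Tnks, -0.03 for Axin1 and -0.05 for Axin2. Of 10 mitosis genes 0 were called, with -0.37 for Top2a, -0.20 for Mki67 and -0.36 for Bub1. The medians of these 4 lists were 0.02, 0.01, -0.003 and -0.16, and that of the 19 neighbours tested 0.03.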

How the data were processed

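Striatal RNA-seq libraries of 16 mice, 48 runs in all, were analysed from 2 tables. The values are whole read counts per gene and per exon bin as the authors deposited them, not normalised. Tools listed in the submitters' processing notes are HTSeq 0.6.1p1, FastQC 0.10.1, limma 3.22.7 and edgeR 3.8.6; what each did is not stated there. No source used here names an aligner or a strand setting. Read layout is given both as 50 bases single-end and as 100 bases paired-end, and both mm9 and mm10 are listed as builds. Of the deposited values from 1 to 10 counts, 62.0% were even. Whether both reads of a pair were counted was not tested, so a count may not be a separate fragment. Bins rebuilt from GENCODE vM1 on NCBIM37 (mm9) matched the deposited number for the 7 members and for 97.6% of the 16655 genes compared, those holding 5 or more bins. Coordinates are therefore on that build.

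Lanes of a mouse were summed, since runs of a mouse differed far less (dispersion index 1.89 to 1.94) than runs of different mice (4.97 to 30.7), so n counts mice. Totals were 73.1 to 82.0 M counts per mouse. Intervals are for the difference between groups, estimated from the variation between mice, and do not give the range of single mice. Genes were tested in R 4.3.3 with edgeR 4.0.16 (filterByExpr with minimum count 10, minimum total 15, TMM, robust quasi-likelihood test, model of genotype and sex) and p-values were adjusted by Benjamini-Hochberg over all 16716 genes kept. Bins were tested with diffSpliceDGE over 235478 bins. Both procedures were run on simulated data with 2-fold changes and the same spread between mice for every gene or bin. For genes, 197 of 200 changed genes were called, with 3 false calls. For bins, 179 of 192 changed bins were called, with 18 false calls in unchanged genes. Genes with a step between mice were not simulated. CPM was used with no pseudocount. Alternatives used DESeq2 1.42.0 and limma 3.58.1, other filters, single lanes and leaving out each mouse.

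The members and the gene lists were chosen with earlier results of these data known. Genes named outside the members were the listed neighbours, the 10 genes most like Ide and the 5 most unlike it by Pearson's r, and, from each list, genes called or else the first 3 tested.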

Additional observations from a re-analysis of the deposited data

How the results depend on the processing

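The genotype and sex differences of the members were refitted under 168 alternatives each, counting each gene and setting once. The genotype refits are given as estimates, and by sex none passed the threshold. The lowest adjusted p by sex was 0.141. The directions of small differences turned. In lane 3 alone the genotype log2 fold change became -0.0374 for Fgfbp3 and -0.00284 for Cpeb3, and the sex log2 fold change of Tnks2 became -0.00328 in lane 3 and -0.00698 in lane 4. With 1 mouse left out, the genotype value ranged from -0.0146 to 0.117 for Fgfbp3 (below 0 without Sample_4733), from -0.000114 to 0.0296 for March5 (below 0 without Sample_4671) and from -0.268 to 0.00289 for Kif11 (above 0 without Sample_4739). The genotype value of Ide ran from 0.0184 to 0.168 and that of Btaf1 from 0.0144 to 0.129. The sex value of Tnks2 ranged from -0.0115 to 0.0203, and was below 0 without Sample_4673, Sample_4676, Sample_4677 or Sample_4804. The count of genes called by sex, 23, was 13 in lane 4 alone and 259 with the DESeq2 Wald test. It was 76 without Sample_4712, 66 without Sample_4673, 41 without Sample_4671, 40 without Sample_4737, 15 without Sample_4733 or Sample_4806, 14 without Sample_4734 or Sample_4738, 13 without Sample_4753 or Sample_4804, and 12 without Sample_4672 or Sample_4731. The count by genotype was 0 under all 24 alternatives. The largest gap between ordered mice moved by less than the spread between mice in 33 of 35 alternatives, the exceptions being March5 in lane 5, at 0.11, and Kif11 in lane 3, at 1.38. With exon bins summed, 1 mouse stood above the largest gap of Cpeb3, against 5 by gene counts, and 2 above that of March5, against 1. Of the 10 genes most like Ide, 5 were also among the top 10 by Spearman's rho, and 2 when genes had to average at least 5 CPM. The causes of these shifts were not tested. No paired analysis was possible, because each mouse number stands in 1 genotype only and the labels used here give no litter. The part of shared litters in the levels was not tested. Low counts limit 4931408D14Rik and Kif11 most, and copies of a read cannot be told from separate molecules here.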

Other observations

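The 5 genes whose levels ran most against Ide over the 16 mice were Zbtb8b, Myof, Adam32, Bst1 and Ifitm2, with Pearson's r from -0.77 to -0.71. In each of them the 7 mice above the Ide gap overlapped the 9 others. Zbtb8b, a zinc finger gene on chromosome 4, had 1.25 to 1.52 CPM in the 7 mice and 1.46 to 2.18 CPM in the 9 others. Ifitm2, an interferon-induced membrane protein gene on chromosome 7, had 2.57 to 3.71 CPM in the 7 mice and 3.53 to 4.02 CPM in the 9 others. Of these 5 genes Myof alone is on chromosome 19.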
